A study of Mus musculus with 24 samples.

Results

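The 7 genes described here encode surface and secreted proteins that are used to recognise bile duct cells and liver progenitors, namely Epcam, Cdh1, Tm4sf4, Prom1, Cd24a, Cd44 and Spp1. They were taken by symbol from a fixed list of names, which was chosen with earlier results of these data known. All 7 were found in both deposited expression tables, among 49592 gene symbols listed in either table. EpCAM and E-cadherin (Cdh1) hold epithelial cells together by binding the same molecule on the neighbouring cell, TM4SF4 is a small tetraspanning membrane protein, and prominin-1 (Prom1, CD133) sits on protrusions of the apical membrane. CD24 is a heavily glycosylated, lipid-anchored surface protein, CD44 is the main receptor for hyaluronan, and osteopontin (Spp1) is a secreted phosphoprotein that binds integrins and CD44. In the liver these proteins mark cholangiocytes and ductal reactions, although CD44 is shared with mesenchymal and blood cells.

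RNA was sequenced by Smart-seq2, a full-length cDNA method, from 2 experiments with 12 samples each. In the homeostasis experiment 1 epithelial population, EpCAM+ ductal cells (DCs), was sorted along with stromal cells that were PDGFRα+SCA1+, PDGFRα-SCA1+ or PDGFRα+SCA1-, from the livers of 3 undamaged littermates aged 12 weeks (mice A, E and F), on C57BL/6 and heterozygous for the nuclear GFP reporter allele B6.129S4-Pdgfratm11(EGFP)Sor/J. In the transwell experiment wild type C57BL/6 mice aged 8 to 12 weeks gave DCs and SCA1+ mesenchymal cells (SCA1+Msc), and 6 groups of 2 samples were made, which are DCs at day 0, DCs grown for 15 days as organoids in the growth factor-rich expansion medium (EM organoids), DCs grown for 15 days above SCA1+Msc in mesenchymal medium (co-cultured organoids), and SCA1+Msc at day 0 or cultured to day 15 either alone or under DCs. All sorts were negative for CD45, CD11b and CD31. DCs were sorted for EpCAM itself, and the methods describe gating mesenchyme from the EpCAM-negative fraction. The level of Epcam in DCs against stroma is therefore a check of the sort and not a result. For the SCA1+Msc of the transwell experiment the sequencing methods name no gate for PDGFRα. The cultured DCs and SCA1+Msc of the transwell experiment came from different littermates. The SCA1+Msc were expanded on their own before DCs were placed above them on an insert that cells cannot cross. By day 15 the co-cultured SCA1+Msc had thus been in culture for longer than the DCs above them. EM organoids and co-cultured organoids differ in medium as well as in the presence of SCA1+Msc, and these cannot be told apart.

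The samples held between 19300000 and 28100000 reads on genes, as recovered from the low values. A level of 3 reads, under which a gene was taken as not detected, lay between 0.0468 and 0.335 for the members. The summed level of 5 mesenchymal markers was 23498 to 46163 in PDGFRα+ samples against 236 to 450 in PDGFRα-SCA1+ and 34.3 to 68.8 in DCs. The summed level of 5 endothelial markers was 1753 to 2054 in PDGFRα-SCA1+ samples although CD31 had been gated out, and its gene Pecam1 was at 726, 732 and 929 there. Hepatocyte markers reached a sum of 18265 and 22889 TPM in SCA1+Msc at day 0 and, in the homeostasis experiment, of 5824 to 6972 in DCs, 3355 to 7754 in PDGFRα-SCA1+ cells and 265 to 1980 in PDGFRα+SCA1+ cells, and their part in any result below was not tested. In bulk RNA fewer cells of a kind and less RNA per cell cannot be told apart.

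In the homeostatic liver 6 of the 7 members were higher in DCs than in PDGFRα+SCA1+ cells, where 14.0% of the 17028 genes tested were called higher, and the same 6 were higher than in PDGFRα+SCA1- cells, where 18.9% of genes were. The exception was Cd44. Against PDGFRα-SCA1+ cells all 7 members were higher in DCs, where 11.3% of genes were called higher. The 3 comparisons share the DC samples. Their counts, and the medians given next, include Epcam, the sort gene, whose excess in DCs is a check of the sort. The members were listed as markers of duct cells, with earlier results of these data known, so these counts are not an independent test. The median log2 fold change of the members was 10.18, 8.76 and 7.10 in these comparisons, against 0.28, 0.47 and 0.04 over all genes tested. Values of this experiment are those the authors deposited, which are close to TPM, and fold changes are on the scale of log2(value + 1) with the SE of the limma fit and adjusted p-values from limma (n = 3 mice a group).

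The adhesion molecules Epcam and Cdh1 had the same profile. Epcam, at 17:87635979-87651129 on the forward strand of GRCm38, was at 3091, 3040 and 2966 in the DCs of mice A, E and F. In PDGFRα+SCA1+ cells it was at 0.525, 0.610 and 2.505, and in PDGFRα+SCA1- cells at 0.396, 11.7 and 0.814. PDGFRα-SCA1+ cells ranged from 0.610 in mouse A to 148 in mouse E, with 30.8 in mouse F, so that the sort gene itself was present at 1.016% and 4.88% of its ductal mean in the samples of mice F and E. Cdh1, at 8:106603351-106670246 on the forward strand, was at 1742, 2111 and 2008 in DCs and at 0.149, 0.132 and 0.448 in PDGFRα+SCA1+ cells. DCs were higher on the log2 scale by 10.62 ± 1.16 (adjusted p = 2.83e-05). In PDGFRα+SCA1- cells Cdh1 was at 0.244, 6.59 and 3.37. In PDGFRα-SCA1+ cells it followed Epcam, with 0.165 in mouse A, 77.9 in mouse E and 13.4 in mouse F. No stromal sample overlapped the DCs for either gene, but the share of all genes that separate so was not counted.

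Tm4sf4 and Prom1, which both cross the membrane several times, had the same pattern at very different levels. Tm4sf4, at 3:57425314-57441677 on the forward strand, was at 9848, 9439 and 9511 in DCs and ranked 8th to 10th of all genes there once the values were brought to TPM. It was at 1.58, 26.4 and 7.0 in PDGFRα+SCA1+ cells and at 1.11, 12.5 and 17.8 in PDGFRα+SCA1- cells, and the log2 fold changes of DCs over them were 10.18 ± 1.17 (adjusted p = 4.24e-05) and 10.21 ± 1.17 (adjusted p = 4.08e-05). PDGFRα-SCA1+ cells held 10.3 in mouse A, 340 in mouse E and 87.7 in mouse F. Prom1, at 5:43993620-44102032 on the reverse strand, was at 115, 161 and 115 in DCs. Of the 6 PDGFRα+ samples, 5 were at or under the level of 3 reads and the sample of mouse F sorted as SCA1+ was at 0.111. In PDGFRα-SCA1+ cells Prom1 was at 0.0661 in mouse A, 16.8 in mouse E and 9.64 in mouse F, and DCs were higher by 4.46 ± 0.85 on the log2 scale (adjusted p = 0.00208).

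Spp1, the only secreted member, at 5:104435118-104441050 on the forward strand, was the most abundant transcript of all 3 DC samples on the TPM scale. Its deposited levels were 68006, 61810 and 48091 in DCs. PDGFRα+SCA1- cells held 57.9, 293 and 144, and PDGFRα+SCA1+ cells held 13.9, 26.5 and 59.6, so the ranges of the 2 mesenchymal fractions met only at their ends. PDGFRα-SCA1+ cells held 19.8, 3493 and 253. The log2 fold change of DCs over PDGFRα+SCA1+ cells was 10.97 ± 1.35 (adjusted p = 7.22e-05) and over PDGFRα-SCA1+ cells 7.80 ± 1.35 (adjusted p = 0.00105).

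Cd24a, at 10:43578284-43584265 on the forward strand, was at 1049, 935 and 882 in DCs. It was at 28.3, 32.1 and 57.5 in PDGFRα-SCA1+ cells, at 18.8, 4.89 and 25.4 in PDGFRα+SCA1+ cells and at 9.16, 0.282 and 6.39 in PDGFRα+SCA1- cells. DCs were higher than PDGFRα+SCA1+ cells by 6.03 ± 0.72 (adjusted p = 6.06e-05) and higher than PDGFRα-SCA1+ cells by 4.63 ± 0.72 (adjusted p = 0.000505). All 3 PDGFRα-SCA1+ samples lay above all 3 PDGFRα+SCA1+ samples for Cd24a, mouse A included. This difference was not called by limma (1.40 on the log2 scale, adjusted p = 0.218). All stromal samples lay under the DCs. The share of all genes that separate in these ways was not counted.

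Cd44, at 2:102811141-102901665 on the reverse strand, was at 219, 222 and 236 in DCs, at 132, 263 and 344 in PDGFRα+SCA1+ cells and at 34.4, 239 and 230 in PDGFRα+SCA1- cells. DCs lay inside the range of both PDGFRα+ fractions. The log2 fold change of DCs over PDGFRα+SCA1+ cells was -0.02 with a 95% interval from -1.55 to 1.51 (adjusted p = 0.991), and over PDGFRα+SCA1- cells it was 0.86 with an interval from -0.67 to 2.39 (adjusted p = 0.392), so that neither interval leaves out a moderate difference in either direction. PDGFRα-SCA1+ cells held only 6.30, 4.58 and 20.9, under every other sample of the experiment, but the share of all genes that separate so was not counted. Against PDGFRα+SCA1+ cells the difference on the log2 scale was -4.58 ± 0.70 (adjusted p = 0.000597), and DCs were higher by 4.56 ± 0.70 (adjusted p = 0.000453). Cd44 was measured as a sum over its exons, and its splice forms were not resolved here.

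**Figure D1:**
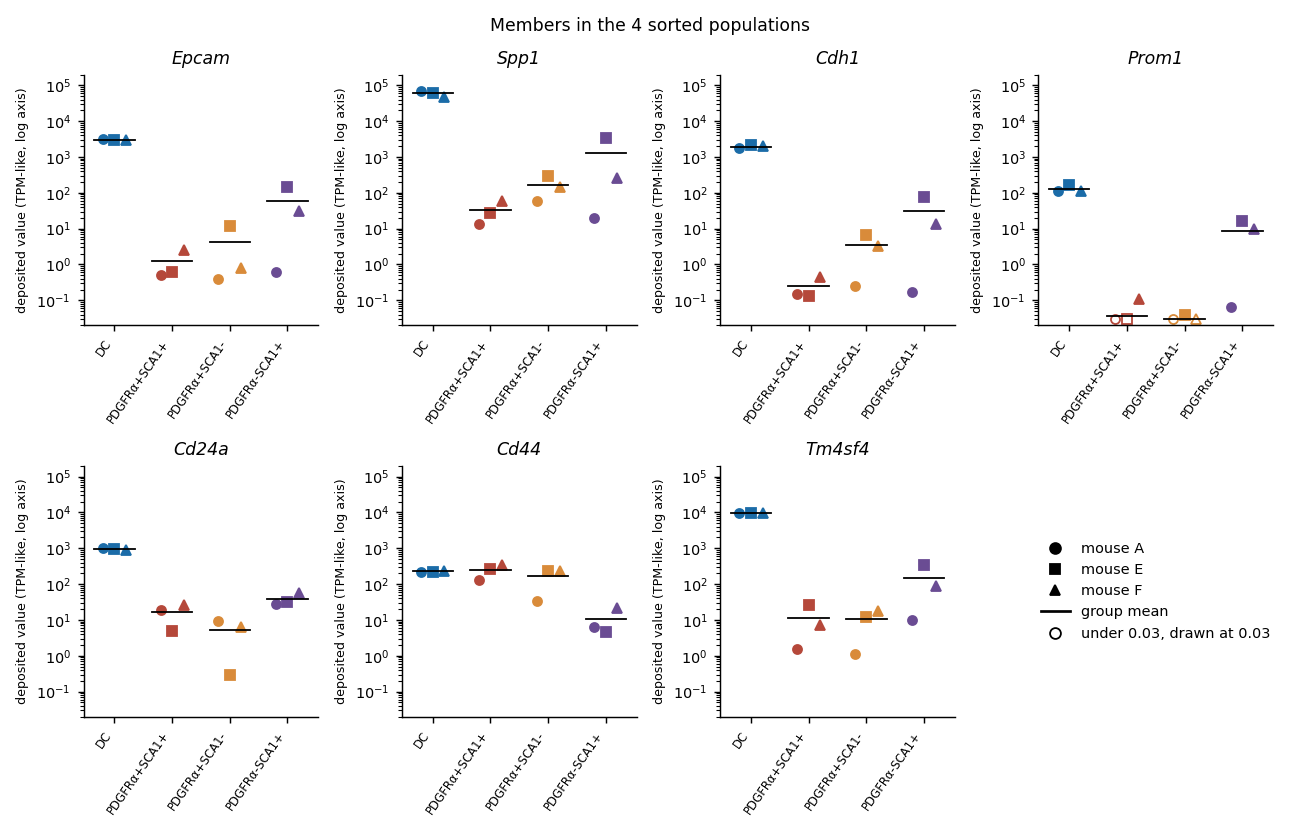
Level of each member in the 4 sorted populations (points are mice A, E and F, the black line is the mean, y axis logarithmic, in deposited units close to TPM). DCs sit above every stromal sample for 6 members, the sort gene Epcam included. The share of all genes that separate so was not counted. Cd44 of DCs (219 to 236) lies among the PDGFRα+ samples, and in PDGFRα-SCA1+ cells mouse A is far below mice E and F for Epcam, Spp1, Cdh1, Prom1 and Tm4sf4.

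Between PDGFRα-SCA1+ and PDGFRα+SCA1+ cells Cd44 was lower, while the calls of the other members depended on the mice and the fit. Of the 7 members 1 was called between PDGFRα-SCA1+ and PDGFRα+SCA1+ cells, which was Cd44 (lower, where 7.86% of genes were), and none was higher, where 10.9% of genes were. The other 6 had positive log2 fold changes from 1.40 for Cd24a to 3.26 for Epcam that did not pass the threshold, with adjusted p-values between 0.0608 and 0.218. Without the PDGFRα-SCA1+ sample of mouse A, 6 members were called in total, and Epcam, Spp1, Cdh1, Prom1 and Tm4sf4 were higher by 5.07, 5.01, 4.77, 3.73 and 4.39 on the log2 scale, while without mouse E these 5 log2 fold changes were 1.80, 1.32, 1.73, 1.70 and 1.93. The excess of DCs over PDGFRα-SCA1+ cells moved likewise, to 5.46, 5.96, 5.85, 3.23 and 5.79 without mouse A and to 8.73, 9.66, 8.89, 5.26 and 8.25 without mouse E, and stayed called. With the mouse as a block, since the populations of a letter come from the same mouse, 3 members were called, which added Cdh1 (adjusted p = 0.0444) and Tm4sf4 (adjusted p = 0.0177). Hepatocyte markers moved between the same 2 fractions, with 3 of 6 higher in PDGFRα-SCA1+ cells and none lower. Between PDGFRα+SCA1+ and PDGFRα+SCA1- cells no member was called by limma, 1 had an unadjusted p under 0.05, which was Cd24a (1.67 on the log2 scale, with an interval from 0.088 to 3.25), and 0.587% of all genes were called in either direction.

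In PDGFRα-SCA1+ cells of mouse E the members stood at a few percent of their ductal means. The shares were 4.88% for Epcam, 5.89% for Spp1, 3.99% for Cdh1, 3.54% for Tm4sf4, 3.36% for Cd24a and 12.9% for Prom1. The cytokeratins, intermediate filament proteins of the biliary epithelium, lay in the same range in that sample, with 2.49% for Krt19, 4.17% for Krt7, 2.97% for Krt8 and 2.36% for Krt18, whereas the ductal transcription factor Sox9 stood at 0.0714%. In mouse F the shares were 0.427% to 1.016% for Epcam, Spp1, Cdh1 and Tm4sf4, 0.510% to 1.11% for the 4 cytokeratins and 7.41% for Prom1. In mouse A they were 0.00846% to 0.107% for all 5 of these members, and 0.0143% to 0.177% for Krt7, Krt8 and Krt18, but 2.41% for Krt19. Cd24a stood at 2.96%, 3.36% and 6.02% in mice A, E and F, and Cd44 at 2.79%, 2.03% and 9.27%, both highest in mouse F. Sox9 stood at 0.561%, 0.0714% and 0.687% in these mice. The summed level of the 5 ductal markers (the 4 cytokeratins and Sox9) ran from 104 in mouse A to 920.1 in mouse E. It moved with Epcam, Spp1, Cdh1, Prom1 and Tm4sf4, but not with Cd24a and Cd44. The part of these markers in the differences between PDGFRα-SCA1+ and PDGFRα+ cells was not tested.

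**Figure D2:**
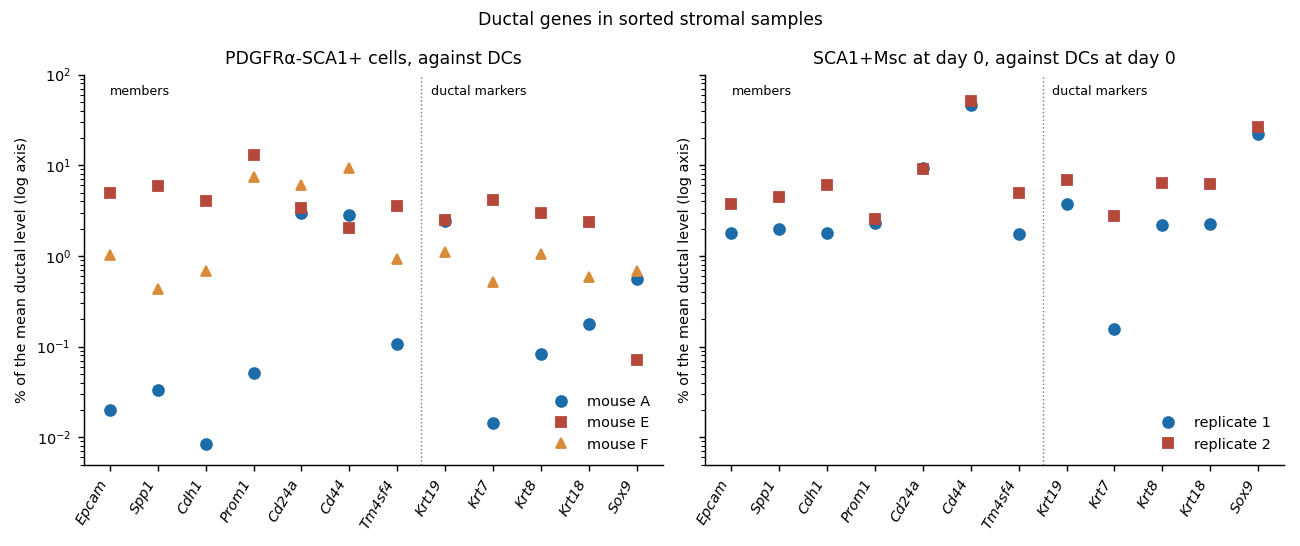
Level of the 7 members and 5 ductal marker genes in single samples of PDGFRα-SCA1+ cells (left) and of SCA1+Msc at day 0 (right), as percent of the mean of the DCs of the same experiment (y axis logarithmic). Epcam is at 4.88% in mouse E against 0.0201% in mouse A, and Cd44 of SCA1+Msc stands at 45.9% and 50.9%, above all other genes shown.

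Genes that work with the members were compared in the same fits. Among 9 partners and proteases of EpCAM 5 were higher in DCs than in PDGFRα+SCA1+ cells, where 14.0% of all genes were called higher, and none was lower. They were led by Cldn7, a claudin that binds EpCAM (9.91 ± 1.20), and Spint1, an inhibitor of the protease that cleaves EpCAM (8.77 ± 0.45). All 4 catenins, which tie E-cadherin to actin or junctions, were higher, by 2.14 to 2.87. All 5 regulators of epithelial identity were higher, among them the ETS factors Elf3 (8.53 ± 1.07) and Ehf (7.99 ± 0.64) and the splicing regulator Esrp1 (4.59 ± 0.40). Of 6 transcriptional repressors of Cdh1, 4 were lower in DCs, where 9.85% of all genes were called lower, with Snai2 at -6.03 ± 0.40, Snai1 at -5.96 ± 0.40 and Zeb1 at -3.83 ± 0.42 on the log2 scale. The same 4 counts against PDGFRα+SCA1- cells were 6 of 9, 4 of 4, 5 of 5 higher and 4 of 6 lower. In that comparison 18.9% of genes were called higher and 9.98% lower. Zeb1 was at 5.06, 6.4 and 4.63 in DCs and between 51.1 and 162 in the stromal samples, with no overlap. The share of all genes that separate so was not counted.

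Receptors and ligands of osteopontin and CD44 were divided between the populations. Of 7 osteopontin receptor genes tested, 3 were higher in DCs than in PDGFRα+SCA1+ cells, with the epithelial integrin subunit Itgb6 (6.72 ± 0.48) and Itgav (1.77 ± 0.31) in front, and 3 were lower, led by Itgb5 (-2.41 ± 0.58) and Itga9 (-1.39 ± 0.35). Of all genes, 14.0% were called higher and 9.85% lower in this comparison. For CD44, the hyaluronan synthase gene Has1 was at 251, 743 and 578 in PDGFRα+SCA1- cells, at 175, 737 and 603 in PDGFRα+SCA1+ cells, at 4.23, 10.7 and 6.10 in PDGFRα-SCA1+ cells and at 0.814, 0.348 and 0.823 in DCs. Has2 was at most 1.18 in this experiment and was not tested. Of the proteins that link CD44 to the cytoskeleton, ezrin (Ezr) was higher in DCs (3.74 ± 0.51) and moesin (Msn) lower (-1.22 ± 0.30) than in PDGFRα+SCA1+ cells. Hyal2, a surface hyaluronidase, was higher by 3.94 ± 0.49 (adjusted p = 0.000136) when PDGFRα-SCA1+ cells were set against PDGFRα+SCA1+ cells, and Has1 differed by -5.82 ± 0.56.

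Relatives of the members showed other profiles. Tm4sf1, also on chromosome 3, was at 1958, 2013 and 1799 in DCs and at 2649, 2506 and 4137 in PDGFRα-SCA1+ cells, against 111 to 264 in the 6 PDGFRα+ samples. Tm4sf5 was at 9.52, 12.3 and 20.51 in DCs and listed at 0 in every stromal sample. Prom2, the relative of Prom1, was too low to be tested.

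A promoter of each member that could be read is printed here. Cdh1 and Cd24a had no matching sequence, so sites for the repressors compared above could not be looked for in Cdh1 itself. Sites for the epithelial regulators compared above were not searched for. RefSeq (GRCm38.p6) promoter sequences, from 250 bases before to 50 bases after the start site, were matched by symbol for 5 of the 7 members, with 7 start sites in all. They were searched on both strands for the E-box CAGGTG bound by SNAI and ZEB factors, the AP-1 site TGANTCA, the TEAD site GGAATG and the HNF1 half-site GTTAAT, which do not overlap each other in any of them. Capitals mark every match, and each sequence is written 5′ to 3′ on the strand of the gene.
Epcam, chr17:87635729-87636028, forward strand: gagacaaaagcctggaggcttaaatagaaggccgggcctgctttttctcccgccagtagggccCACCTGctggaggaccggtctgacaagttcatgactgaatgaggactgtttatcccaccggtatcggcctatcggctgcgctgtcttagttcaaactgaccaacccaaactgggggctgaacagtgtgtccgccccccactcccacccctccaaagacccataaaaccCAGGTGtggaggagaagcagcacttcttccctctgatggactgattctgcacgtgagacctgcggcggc
Spp1, chr5:104434861-104435160, forward strand: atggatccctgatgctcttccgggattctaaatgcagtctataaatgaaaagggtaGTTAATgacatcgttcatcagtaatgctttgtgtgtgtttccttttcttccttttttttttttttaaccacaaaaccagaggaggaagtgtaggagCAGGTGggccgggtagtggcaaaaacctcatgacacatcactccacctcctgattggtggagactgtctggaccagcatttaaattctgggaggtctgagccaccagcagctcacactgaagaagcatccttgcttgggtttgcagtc
Tm4sf4, chr3:57425160-57425459, forward strand: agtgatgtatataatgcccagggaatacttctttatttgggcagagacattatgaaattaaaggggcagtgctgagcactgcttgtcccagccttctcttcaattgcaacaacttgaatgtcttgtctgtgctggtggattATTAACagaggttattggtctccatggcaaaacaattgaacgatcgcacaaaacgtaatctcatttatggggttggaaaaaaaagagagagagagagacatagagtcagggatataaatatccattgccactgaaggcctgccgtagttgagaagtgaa
Prom1, chr5:44101687-44101986, reverse strand: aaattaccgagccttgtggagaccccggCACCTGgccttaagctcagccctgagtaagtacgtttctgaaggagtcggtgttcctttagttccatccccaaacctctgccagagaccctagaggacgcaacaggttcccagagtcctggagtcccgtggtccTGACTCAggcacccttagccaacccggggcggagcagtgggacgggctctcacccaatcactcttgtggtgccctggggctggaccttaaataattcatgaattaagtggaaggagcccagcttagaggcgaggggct
Cd44, chr2:102901616-102901915, reverse strand: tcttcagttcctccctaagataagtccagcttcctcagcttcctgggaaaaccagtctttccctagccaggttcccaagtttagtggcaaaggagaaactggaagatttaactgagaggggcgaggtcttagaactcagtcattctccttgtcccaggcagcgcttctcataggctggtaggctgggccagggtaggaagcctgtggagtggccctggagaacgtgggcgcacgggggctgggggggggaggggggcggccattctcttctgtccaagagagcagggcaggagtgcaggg
Epcam held 2 E-boxes, which start 187 and 19 bases before the start site, and the printed promoters of Spp1 and Prom1 held 1 each, at 98 and 222 bases before it. The second promoter of Spp1, not printed, held none of the 4 motifs. That of Prom1, also not printed, held an AP-1 site and no E-box. Such an E-box stands in 20.2% of 32851 promoters of this length. A match to the HNF1 half-site, present in 7.10% of promoters, was found 194 bases before the start of the printed Spp1 promoter and 109 bases before that of Tm4sf4. The AP-1 site, present in 7.81% of promoters, was found in both Prom1 promoters, while the TEAD site (14.7% of promoters) was found in none of the 7, and the Cd44 window holds none of the 4 motifs. These are matches of letters in a short window, not sites shown to be bound.

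**Figure D3:**
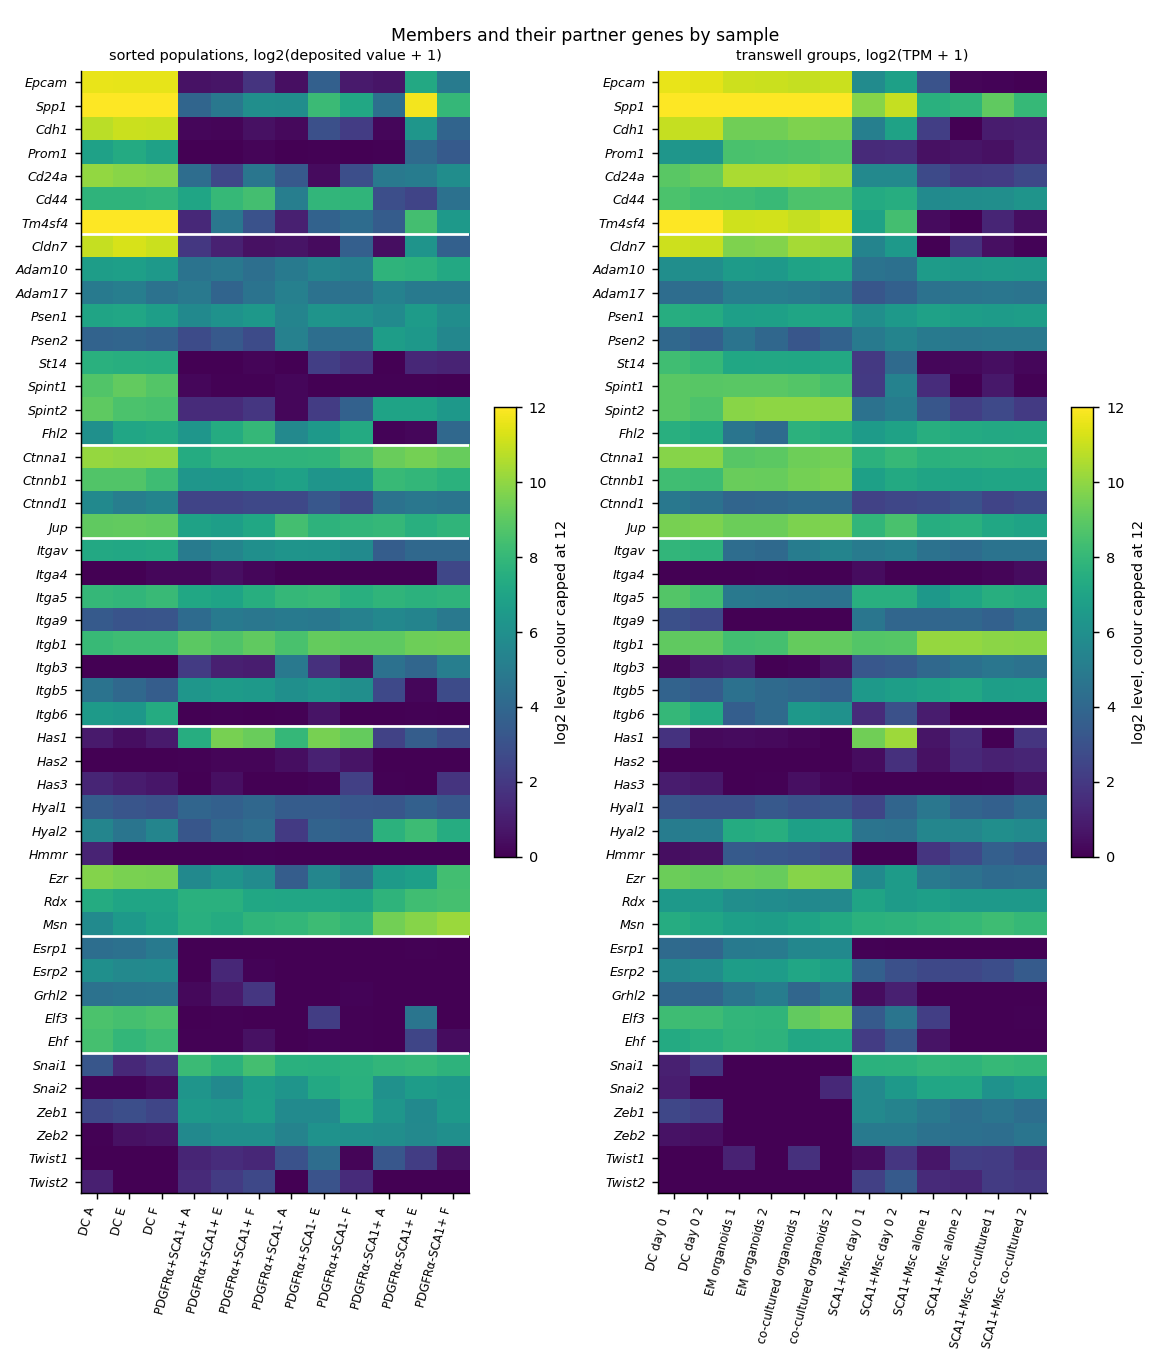
Levels of the members and of their partner genes in every sample, as log2(value + 1), with the sorted populations on the left and the transwell groups on the right (white lines separate the lists, colours are capped at 12). Cdh1 is high in DCs and organoids, where Snai1, Snai2, Zeb1 and Zeb2 are low, and Has1 is highest in freshly sorted PDGFRα+ cells and SCA1+Msc at day 0.

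In the transwell experiment the freshly sorted cells were compared first. All 7 members were higher in DCs than in SCA1+Msc at day 0, where 24.7% of 18136 genes tested were called higher, from Cd44 (1.04 ± 0.14, adjusted p = 0.000242) to Epcam (5.25 ± 0.71, adjusted p = 0.000244), the sort gene. Values of this experiment are TPM made from the deposited RPKM, with 2 replicates a group. Cd44 was at 385 and 314 TPM in DCs and at 160 and 178 TPM in SCA1+Msc. The SCA1+Msc at day 0 held 1.76% to 2.31% of the ductal means of Epcam, Spp1, Cdh1, Prom1 and Tm4sf4 in replicate 1 and 2.56% to 6.06% in replicate 2. In the same 2 samples Krt8 stood at 2.17% and 6.41%, Krt19 at 3.71% and 6.95%, and the sum of the 5 ductal markers was 1047 and 2676 TPM against 40191 and 41419.7 TPM in DCs. Cd24a stood higher, at 9.20% and 9.18% (48.7 and 48.6 TPM), as did Cd44, and the ductal factor Sox9 was at 22.1% and 26.6%.

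After 15 days of culture the members no longer moved as a group. Between EM organoids and DCs at day 0, 2 members were higher (27.1% of all genes were called higher) and 1 was lower (17.2%), and the members' median was -0.26 on the log2 scale against 0.12 over all genes. Between co-cultured organoids and DCs at day 0, 2 were higher (23.2% of genes) and 2 were lower (19.1%), with a median of -0.54 against 0 over all genes. Both comparisons share the DCs at day 0. Markers of other cells moved as well. The sum of 6 hepatocyte markers was 4399 and 5425 TPM in DCs, 1339 and 1404 TPM in EM organoids and 156 and 423 TPM in co-cultured organoids, and 4 of the 6 were lower than in DCs in each kind of organoid. The sum of 5 mesothelial markers was 136 and 156 TPM in DCs, 300.1 and 327 TPM in EM organoids and 4504 and 3882 TPM in co-cultured organoids, where nearly all of it was Msln (4500.2 and 3879 TPM), while Upk1b and Wt1 were listed at 0 there. The part of these markers in the changes of the members was not tested.

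Prom1 and Cd24a rose in both kinds of organoid. Prom1 was at 76.8 and 72.4 TPM in DCs at day 0, at 374 and 383 TPM in EM organoids and at 411 and 455 TPM in co-cultured organoids, with log2 fold changes of 2.33 ± 0.20 (adjusted p = 1.52e-05) and 2.52 ± 0.20 (adjusted p = 1.06e-05). It moved from rank 2011 and 2119 among all genes in DCs to between rank 311 and 391 in organoids. Cd24a was at 493 and 567 TPM in DCs, at 1423 and 1437 TPM in EM organoids and at 1537 and 1212 TPM in co-cultured organoids (1.43 ± 0.23, adjusted p = 0.000705, and 1.37 ± 0.23, adjusted p = 0.000997). No organoid sample overlapped the DCs for either gene, but the share of all genes that separate so was not counted.

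Tm4sf4 fell in both. It was at 6085 and 7670 TPM in DCs, at 2243 and 2283 TPM in EM organoids and at 1984 and 2469 TPM in co-cultured organoids, with log2 fold changes of -1.59 ± 0.42 (adjusted p = 0.0117) and -1.63 ± 0.42 (adjusted p = 0.0112). The call for EM organoids did not hold without replicate 2 of the DCs (adjusted p = 0.0911), replicate 1 of the EM organoids (adjusted p = 0.0589) or their replicate 2 (adjusted p = 0.0556), nor with a pseudocount of 0.1 or quantile normalization. That for co-cultured organoids did not hold without replicate 2 of the DCs or replicate 1 of the co-cultured organoids (adjusted p = 0.0884 and 0.0830) or with a pseudocount of 0.1. The values of the organoids lay under those of both DC samples, but the share of all genes that separate so was not counted.

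Spp1 separated co-cultured organoids from DCs. It was at 43285 and 45483 TPM in DCs, 42971 and 41967 TPM in EM organoids, and 18990 and 17639 TPM in co-cultured organoids. Against DCs at day 0 the EM organoids differed by -0.06 on the log2 scale with an interval from -0.89 to 0.76, and the co-cultured organoids were lower by -1.28 ± 0.37 (adjusted p = 0.0191), a call that did not hold without any 1 of the 4 samples compared (adjusted p from 0.0795 to 0.103) or with quantile normalization, where the log2 fold change was -0.38. Co-cultured organoids differed from EM organoids by -1.21 ± 0.37, which missed the threshold (adjusted p = 0.0612) and passed it when genes had to reach a value of 5 (adjusted p = 0.0470). Spp1 still ranked second of all genes in the 4 organoid samples, after ranking first in DCs, and quantile normalization, which assigns values by rank, gave EM and co-cultured organoids the same value.

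Epcam, Cdh1 and Cd44 passed the threshold against DCs in neither organoid. Epcam was at 3084 and 2914 TPM in DCs, 2156 and 2081 TPM in EM organoids and 1986 and 2136 TPM in co-cultured organoids, and its intervals ran from -2.10 to 1.10 and from -2.14 to 1.06 on the log2 scale. Cdh1 was at 2001 and 1997 TPM in DCs, at 674 and 671 TPM in EM organoids and at 812 and 780 TPM in co-cultured organoids. Its log2 fold changes were -1.57 ± 0.66 (adjusted p = 0.0815) and -1.33 ± 0.66 (adjusted p = 0.140). The values of both kinds of organoid lay under those of both DC samples, but the share of all genes that separate so was not counted. These fits take 1 estimate of the spread from all 6 groups, SCA1+Msc alone included, where Epcam was at 7.28 and 0.133 TPM. In fits of only the groups compared Epcam and Cdh1 were called lower in EM organoids (adjusted p = 0.0376 and 0.00569) and in co-cultured organoids (adjusted p = 0.0491 and 0.00766).

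Cd44 was at 305 and 277 TPM in EM organoids and at 402 and 415 TPM in co-cultured organoids, which put DCs at day 0 (385 and 314 TPM) between them. It was the single member called between the 2 cultures, higher in co-cultured organoids, where 5.73% of genes were called higher, by 0.49 ± 0.14 on the log2 scale (adjusted p = 0.04997), or 0.62 above the median of all genes, which was -0.13. This call lies at the threshold. It did not hold without any 1 of the 4 samples (adjusted p from 0.118 to 0.238), without a filter on low values (adjusted p = 0.0780), with a pseudocount of 0.1, without the trend of the variance, in a fit of only these groups or with the replicate number as a block (adjusted p = 0.0667). Epcam, Cdh1, Prom1, Cd24a and Tm4sf4 differed between the cultures by between -0.07 and 0.24 on the log2 scale. The widest of their intervals, that of Epcam, ran from -1.64 to 1.56, and the narrowest, that of Prom1, from -0.26 to 0.64.

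**Figure D4:**
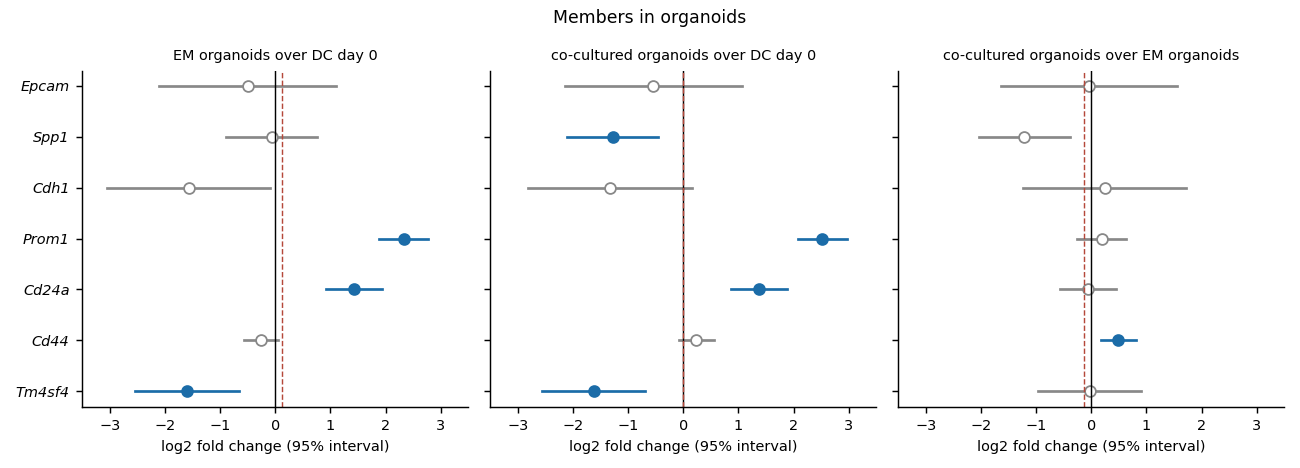
Log2 fold change of each member in 3 comparisons of organoids and DCs at day 0 (points with 95% intervals of the limma fit, n = 2 a group, filled blue points pass an adjusted p of 0.05, the dashed red line is the median of all genes). Prom1 and Cd24a lie to the right and Tm4sf4 to the left of 0 in both organoids against DCs, and Spp1 lies to the left only for co-cultured organoids.

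Partner genes of the members in organoids went in several directions. Tm4sf1 fell with Tm4sf4, with log2 fold changes against DCs of -2.32 ± 0.21 in EM organoids and -2.59 ± 0.21 in co-cultured organoids. Tm4sf5 was lower in EM organoids than in DCs (-2.48 ± 0.30) and higher in co-cultured than in EM organoids (2.79 ± 0.30). Of 7 osteopontin receptor genes tested, 5 were lower (17.2% of all genes) and 1 was higher (27.1%) in EM organoids than in DCs. Itgb6 was at -3.80 ± 0.49, Itga5 at -3.76 ± 0.20 and Itgav at -3.65 ± 0.18. In co-cultured organoids 4 were lower than in DCs (19.1% of all genes). Between the cultures 3 of the 7 were higher in co-cultured organoids (5.73% of all genes), led by Itgb6 (2.39 ± 0.49) and Itgav (1.03 ± 0.18), where Spp1 was at its lower level. Of 4 catenins, Ctnnb1 (beta-catenin) was higher and Ctnna1 lower than in DCs in both organoids (0.95 ± 0.14 and -0.91 ± 0.11 in EM organoids, 1.30 ± 0.14 and -0.44 ± 0.11 in co-cultured organoids), while Cdh1 had the values above. Among the repressors of Cdh1, Zeb1 was at 4.86 and 3.68 TPM in DCs, at 0 and 0.0310 TPM in EM organoids and listed at 0 in both co-cultured organoids. Krt19 was at 1791 and 1580 TPM in EM organoids and at 15435 and 14387 TPM in co-cultured organoids, a log2 fold change of 3.15 ± 0.69 between the cultures.

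In SCA1+Msc all 7 members were lower after 15 days alone than at day 0, where 17.5% of genes were called lower. Tm4sf4 went from 121 and 340 TPM to 0.261 and 0 TPM, at or under the level of 3 reads (-7.50 ± 0.42, adjusted p = 1.40e-06). Epcam went from 53.8 and 113 TPM to 7.28 and 0.133 TPM and Cdh1 from 35.6 and 121 TPM to 3.65 and 0 TPM, so that replicate 1 of the cultured cells kept some of both. Cd24a went from 48.7 and 48.6 TPM to 5.56 and 3.16 TPM (-3.25 ± 0.23) and Prom1 from 1.72 and 1.91 TPM to 0.454 and 0.625 TPM (-0.87 ± 0.20). Cd44 went from 160 and 178 TPM to 52.3 and 58.3 TPM (-1.60 ± 0.14, adjusted p = 2.07e-05). Ductal markers moved with these members, from a sum of 1047 and 2676 TPM to one of 8.78 and 28.6 TPM, as did hepatocyte markers, from 18265 and 22889 TPM to 2.20 and 12.6 TPM, and their part in the fall was not tested. Without replicate 1 of the cells alone the log2 fold changes of Epcam and Cdh1 were -6.12 and -6.06, and without replicate 2 they were -3.25 and -3.85. In a fit of only these 2 groups 4 members were called, without Epcam, Spp1 and Cdh1 (adjusted p = 0.0962, 0.0503 and 0.0771).

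Spp1 and Cd44 had the highest levels of the members in cultured SCA1+Msc. Spp1 was at 890 and 1979 TPM at day 0, at 193 and 229 TPM after culture alone and at 545 and 263 TPM after co-culture. In the co-cultured samples Epcam was at 0.0774 and 0 TPM, under the level of 3 reads, and Krt8 at 2.71 and 0.767 TPM. The source of this Spp1 was not tested. Cd44 was at 59.7 and 73.9 TPM after co-culture. Among their partners, Has1 was at 684 and 1211 TPM at day 0 and between 0 and 2.65 TPM in the 4 cultured samples (-8.75 ± 0.65 for cells alone), and the classical cadherin Cdh3 rose from 9.15 and 4.11 TPM to 173 and 155 TPM in cells alone (4.51 ± 0.26) while Cdh1 was lower. Between co-cultured SCA1+Msc and SCA1+Msc alone no member was called by limma, with 0.127% of genes called in either direction and 1 member under an unadjusted p of 0.05, which was Spp1 (0.85 on the log2 scale, with an interval from 0.021 to 1.67).

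**Figure D5:**
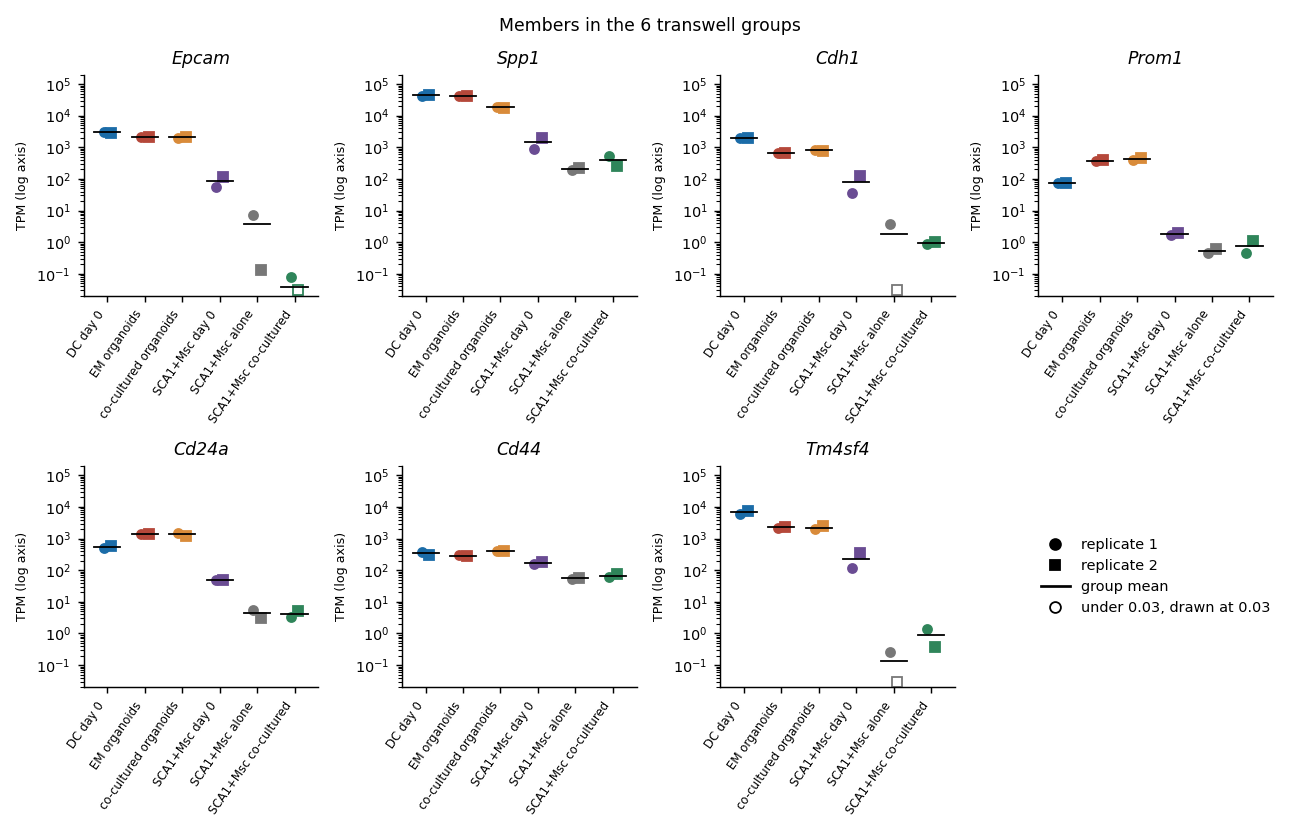
Level of each member in the 6 transwell groups (points are replicates 1 and 2, the black line is the mean, y axis logarithmic, in TPM, open points stand for values under 0.03). Prom1 and Cd24a rise from DCs at day 0 to both organoids, and Spp1 is lower in co-cultured organoids. In cultured SCA1+Msc Epcam, Cdh1 and Tm4sf4 are at 7.28 TPM or less while Spp1 stays between 193 and 545 TPM.

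The change from day 0 to day 15 in co-culture was compared between DCs and SCA1+Msc in the same fit, although SCA1+Msc had been expanded before DCs were added. For 6 of the 7 members, the sort gene Epcam included, the change was more positive in DCs, where 13.8% of genes had a difference called in that direction. Prom1 and Cd24a changed by 2.52 and 1.37 on the log2 scale in DCs and by -0.70 and -3.28 in SCA1+Msc. Tm4sf4 changed by -1.63 in DCs and by -6.82 in SCA1+Msc, and Cd44 by 0.23 and -1.33. Spp1 was the exception, with -1.28 in DCs and -1.81 in SCA1+Msc, a difference of 0.53 with an interval from -0.64 to 1.70.

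Across samples Cd44 stood apart from the other members in the homeostasis experiment and not in the transwell experiment. In the 12 homeostasis samples Pearson's r of log2(value + 1) between Epcam, Spp1, Cdh1, Prom1 and Tm4sf4 was 0.955 to 0.992, r of Cd24a with these 5 was 0.803 to 0.907, and r of Cd44 with the other 6 was 0.0666 to 0.184. In the 12 transwell samples r was 0.855 to 0.991 among the 6 members other than Cd44 and 0.896 to 0.978 between Cd44 and these 6. These values rest mostly on the contrast of ductal with stromal samples, which many genes share. The genes most like each member in both experiments, by the smaller of the 2 r over 12 samples each, among 13368 genes, were Cdh1, Tstd1 and Krt18 for Epcam (smaller r of at least 0.973) and Epcam, Krt18 and Krt8 for Cdh1 (at least 0.987). For Tm4sf4 they were Krt18, Krt8 and Cdh1 (at least 0.973), for Spp1 Rasal1, Kcnk1 and Cdh1 (at least 0.959), for Prom1 Sgpp2, Pdzk1ip1 and Cyfip2 (at least 0.966), and for Cd24a Krt19, Wwc1 and Chdh (at least 0.937). Cd44 had the lowest likeness, with Sox9, Fjx1 and Rrp1b at 0.875, 0.856 and 0.854.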

How the data were processed

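Smart-seq2 libraries of 24 samples were sequenced as single reads. According to the submitters' processing notes, STAR 2.5.0a and featureCounts 1.6.0 were used with the mouse build GRCm38. The transwell table holds RPKM as deposited by the authors, which were scaled to TPM in each sample. The homeostasis table was deposited by the authors as TPM, but its values are a score: each RPKM was divided by the totals of the 12 samples in turn down the rows, so that deposited values are 0.722 to 1.39 times the TPM. The depth recovered from the low values was 19300000 to 28100000 reads per sample, with 92.9% and 93.1% of low values whole, and a value under 3 reads was taken as not told apart from 0. Such floors cover counting error only.

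Values were tested as log2(value + 1) with limma 3.58.1 in R 4.3.3, with 1 mean per group, a variance trend and Benjamini-Hochberg adjustment over all genes of at least 1 in 3 samples (homeostasis, 17028 genes) or 2 samples (transwell, 18136 genes), at a threshold of 0.05. Fits were tested on simulated data. Samples with the same mouse letter come from the same mouse and are paired (correlation of residuals 0.0102 to 0.0973), whereas transwell replicates share only a number. The study describes the transwell replicates as biological and names 2 littermates for the SCA1+Msc and 2 others for the cultured DCs, but the labels do not tie a sample to a mouse. The members and partner lists were chosen with earlier results of these data known. Partners were named as the first 2 called in each direction per list and comparison, with Prom2, Tm4sf1, Tm4sf5, Cldn7, Itgav, Has2, Esrp1, Zeb1 and Krt19 always eligible. Some genes of the lists are not reported here, and sums and counts leave them out. Other partner values in the text were chosen after they were seen. Alternatives were other pseudocounts, filters, scalings and variance models, a replicate block, fits of only the groups compared, and leaving out each sample.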

Additional observations from a re-analysis of the deposited data

Results flagged for a closer look

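The change between day 0 and day 15 of co-culture differed between DCs and SCA1+Msc for 6 members, by the interaction contrast of the limma fit. The differences, ductal minus mesenchymal on the log2 scale, were 5.71 for Epcam (adjusted p = 0.00292), 5.19 for Tm4sf4 (adjusted p = 0.000275), 4.65 for Cd24a (adjusted p = 1.67e-05), 3.77 for Cdh1 (adjusted p = 0.0149), 3.22 for Prom1 (adjusted p = 6.23e-05) and 1.57 for Cd44 (adjusted p = 0.000498). Co-cultured SCA1+Msc held Epcam, the sort gene, at 0.0774 and 0 TPM, under the level of 3 reads. They held Tm4sf4 at 1.37 and 0.370 TPM, Cdh1 at 0.898 and 0.999 TPM and Prom1 at 0.462 and 1.06 TPM. At such low values the size of a difference depends on the 1 added before the log. SCA1+Msc at day 0 held 1047 and 2676 TPM of summed ductal markers, and co-cultured SCA1+Msc 11.0 to 16.1 TPM, and the part of these cells or transcripts in the differences was not tested. The call for Cdh1 did not hold without either DC sample of day 0 or either co-cultured organoid sample (adjusted p from 0.0531 to 0.0576).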

How the results depend on the processing

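With 1 sample left out, the number of members called stayed at 6, 6 and 7 for DCs over cells sorted as PDGFRα+SCA1+, as PDGFRα+SCA1- and as PDGFRα-SCA1+. It ranged from 1 to 6 for PDGFRα-SCA1+ over PDGFRα+SCA1+ cells, from 2 to 3 for EM and for co-cultured organoids over DCs, and was 0 for co-cultured over EM organoids. PDGFRα-SCA1+ over PDGFRα+SCA1+ cells gave 2 members with a minimum of 5, 4 with quantile normalization and 3 with the mouse as a replicate block. Co-cultured over EM organoids gave 2 with a minimum of 5 and 0 with a pseudocount of 0.1, no filter, no trend, only these groups or the replicate block. Fits of only the groups compared gave 5 members for EM organoids over DCs and 4 for SCA1+Msc alone over day 0. Signs of members turned only in differences that were not called. Leaving out 1 sample moved Cd44 between -0.41 and 0.27 for DCs over PDGFRα+SCA1+ cells and between -0.054 and 1.33 over PDGFRα+SCA1- cells. For PDGFRα+SCA1+ over PDGFRα+SCA1- cells it gave -1.23 to 0.37 for Epcam, -0.039 to 0.037 for Prom1, -0.033 to 1.35 for Cd44 and -0.94 to 0.87 for Tm4sf4, and quantile normalization gave -0.94 for Prom1 and -0.45 for Tm4sf4. For co-cultured over EM organoids it gave -0.093 to 0.012 for Epcam, -0.24 to 0.10 for Cd24a and -0.19 to 0.13 for Tm4sf4, and RPKM gave 0.016 for Epcam and 0.025 for Tm4sf4. For co-cultured SCA1+Msc over those alone it gave -1.25 to 0.96 for Cdh1, -0.072 to 0.42 for Prom1 and -0.36 to 0.30 for Cd24a, and a pseudocount of 0.1 gave 0.77 for Cdh1. The difference of changes of Spp1 ran from -0.049 to 1.10. The cause was not tested. Quantile normalization moved the share of called genes that were higher from 65.4% to 53.9% for DCs over PDGFRα+SCA1- cells, from 58.1% to 45.7% for PDGFRα-SCA1+ over PDGFRα+SCA1+ cells and from 74.0% to 57.4% for PDGFRα+SCA1+ over PDGFRα+SCA1- cells, where 54 genes were called in place of 100. It lowered the median of all genes for DCs over PDGFRα+SCA1+ cells from 0.28 to 0.10.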
